A study of Homo sapiens with 6 samples.

Results

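The 45 genes described here encode the proteins that license replication origins, unwind and copy DNA, join the copied strands and supply the deoxynucleotides, and were chosen by gene name. All 45 were found among the 54644 rows of the gene table, and all 45 passed the filter on low counts. They were measured in SKBR3, a HER2-amplified human breast adenocarcinoma line, carried as stable cells after lentiviral infection and puromycin selection. The control group held 3 libraries from cells infected with the empty pLVX vector (CON-1 to CON-3), and the CTTN group held 3 libraries from cells infected with pLVX-CTTN, which carries the cDNA of cortactin, an actin-binding protein (CTTN-1 to CTTN-3). The extraction label speaks of tumors of the stable lines, while the design text speaks of the stable cells themselves and the paper's methods of SKBR3 cells. Which of them gave the RNA is not settled here. The labels call the 3 libraries of each group biological replicates, and the number of separate infections behind a stable line is not given in the sources used here. The comparison asks how the mRNAs of the DNA synthesis machinery stood in cells with extra cortactin. In bulk RNA, fewer cells in S phase and less RNA of a gene per cell cannot be told apart.

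In textbook outline, the origin recognition complex (ORC) marks origins and, with CDC6 and CDT1, loads the 6-subunit MCM ring onto DNA in G1. CDC45 and the GINS complex turn the loaded ring into the active helicase, primase-polymerase alpha lays down the first primer, and RPA covers the exposed single strand. RFC then loads the PCNA clamp, on which polymerases delta and epsilon copy the strands, FEN1 trims flaps and LIG1 seals nicks. Ribonucleotide reductase (RRM1, RRM2), thymidylate synthase (TYMS), thymidine kinase (TK1) and dUTPase (DUT) set the nucleotide pools, and SLBP binds the stem-loop of histone mRNAs, which lack a poly(A) tail. Many of these genes are known targets of the E2F transcription factors.

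The promoters were searched for E2F-type and CCAAT letters, which played no part in choosing the members. Promoter sequences from RefSeq (GRCh38.p14) matched 39 of the 45 genes. GINS4, MCM4, MCM5, POLD3, RPA2 and RPA3 had no entry. An E2F-type match was any of TTTCCCGC, TTTGGCGC, TTCCCGCC and TTGGCGCC on either strand, words that overlap each other, and it was present in the 250 bases before the start of 16 of 39 members (41.0%) against 4.64% of all 27305 promoters. The CCAAT word, on either strand, was present in 22 of 39 members (56.4%) against 33.0% of all promoters, and both were present in 11 members (28.2%) against 1.75%. The 27305 promoters were not matched to those of the members in base content or expression. A match is a string of letters and was not tested as a binding site. The windows below show 8 of the 16 members with a match, picked as examples from licensing, the MCM ring, helicase activation, polymerase alpha, the clamp and nucleotide supply, 30 bases each, 5′ to 3′ on the gene's strand, with the E2F-type letters in capitals.
MCM7 (chr7:100101566-100101595, minus strand, match nearest the start beginning 187 bases before it): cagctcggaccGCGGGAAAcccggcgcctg
MCM6 (chr2:135876515-135876544, minus strand, match nearest the start beginning 90 bases before it): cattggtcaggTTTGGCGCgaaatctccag
CDT1 (chr16:88803754-88803783, plus strand, match nearest the start beginning 24 bases before it): GCGGGAAAtttGGCGGGAAccgcgcccgcc
GINS2 (chr16:85688967-85688996, minus strand, match nearest the start beginning 31 bases before it): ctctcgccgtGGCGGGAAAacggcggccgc
PCNA (chr20:5126663-5126692, minus strand, match nearest the start beginning 59 bases before it): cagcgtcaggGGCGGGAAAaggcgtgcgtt
POLA1 (chrX:24693770-24693799, plus strand, match nearest the start beginning 137 bases before it): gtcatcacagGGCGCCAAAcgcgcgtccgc
TYMS (chr18:657603-657632, plus strand, match nearest the start beginning 39 bases before it): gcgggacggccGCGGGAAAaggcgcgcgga
RRM1 (chr11:4094451-4094480, plus strand, match nearest the start beginning 223 bases before it): caagaaaaacgTTCCCGCCggttaggtttt
The 16 members with an E2F-type match had a median log2 fold change of 0.03 between CTTN and Control, and the 23 without one had a median of 0.02. The median control level was 37.6 FPKM with the letters and 32.4 FPKM without them.

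CTTN itself checked the labels. It stood at 793, 1011 and 520.0 CPM in CTTN-1, CTTN-2 and CTTN-3 against 299, 307 and 306 in the 3 controls, a log2 fold change of 1.35 (SE 0.221; edgeR quasi-likelihood test, adjusted p = 0.025), or 2.55-fold. Every CTTN library lay above every control. CPM here are counts scaled to a common library total after TMM normalization, and reads from the transgene and from the endogenous gene are not separated. The call on CTTN was lost in 8 of 20 alternative settings, among them each one that left out a control library, with adjusted p of up to 0.15, while the log2 fold change stayed between 1.10 and 1.73. Luminal breast epithelial markers summed to between 7022 and 10821 FPKM in a library, and the summed fibroblast, immune and endothelial markers reached at most 4.44, 0.665 and 4.62 FPKM. The endothelial sum was mostly CDH5, at 1.43 to 2.02 FPKM in the CTTN libraries and 3.96 to 4.45 FPKM in the controls.

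The CTTN libraries were not alike. Total counts were even, from 34887069 to 41279816 a library, but on the first principal component of log CPM, which held 67.4% of the variance, CTTN-3 stood at -58.2, CTTN-1 at -23.9 and CTTN-2 at 6.52, against 20.5 to 28.3 in the controls. CTTN mRNA was lowest in CTTN-3, the library farthest from the controls, and highest in CTTN-2, the nearest. Results are therefore given library by library, and with and without these libraries where a count rests on them.

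None of the 45 replication genes passed the test between CTTN and Control. At an adjusted p below 0.05 (edgeR quasi-likelihood test, Benjamini-Hochberg over 14409 genes), 0 members were called, against 350 genes higher and 293 lower overall (4.46% of the genes tested). Before adjustment, 10 members had p below 0.05, 7 with a positive and 3 with a negative log2 fold change, which is 22.2% of the members beside 30.2% of all genes. The median log2 fold change was 0.02 over the members and 0.01 over all genes, with 26 members above 0 and 19 below. For 35 of 45 members (77.8%) the whole 95% interval of the fold change lay inside 1.5-fold in either direction, compared with 44.1% of all genes tested, and for the other 10 it reached past 1.5-fold. The width of an interval depends on the counts, and the genes tested were not matched to the members on count level. In CPM, the scale on which overlap is stated unless FPKM is named, every CTTN library lay above every control in 10 members (MCM5, MCM7, GINS2, ORC5, POLA2, RFC2, POLD1, POLD2, TK1 and DUT) and below every control in 8 (MCM4, MCM6, ORC1, RFC1, RFC5, POLD3, RRM2 and LIG1), beside 19.4% of all genes above and 19.4% below.

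**Figure D1:**
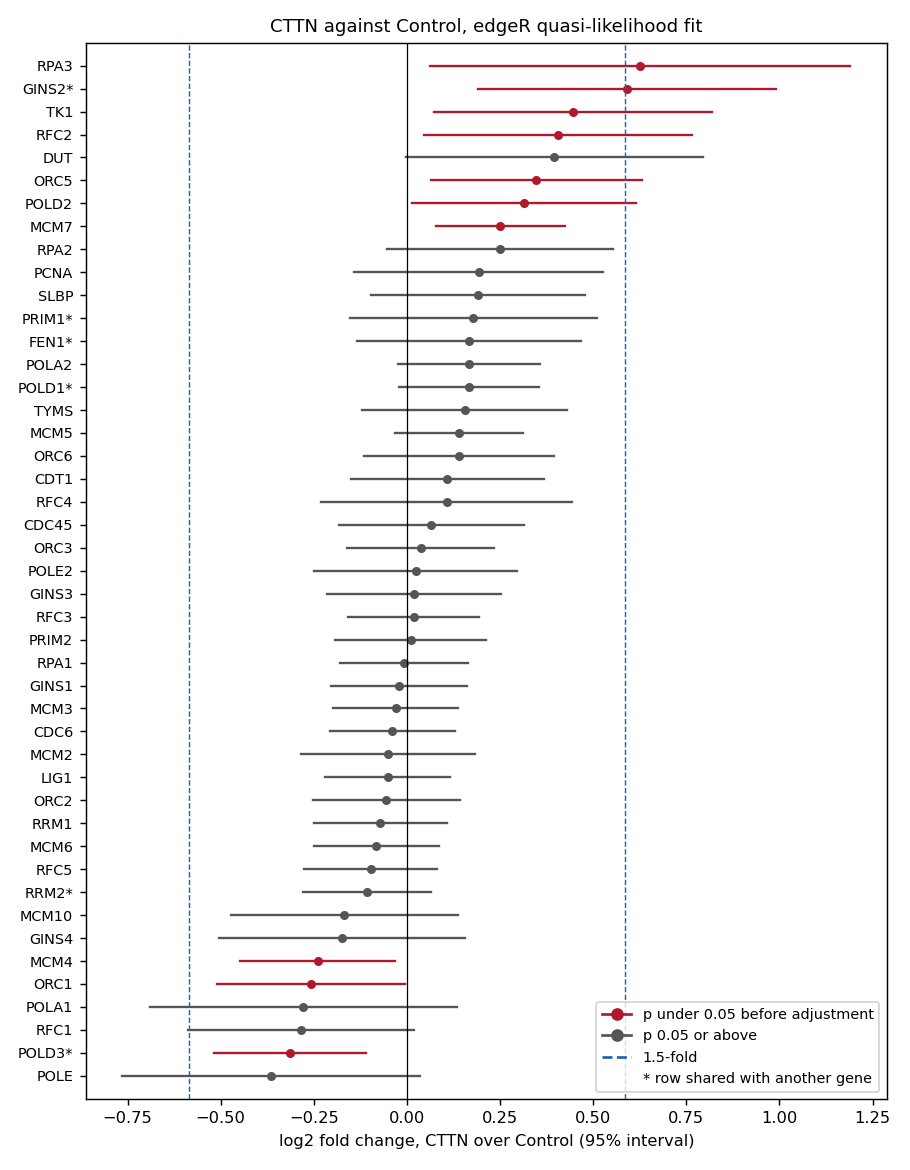
Log2 fold change of CTTN over Control for each of the 45 genes (horizontal axis) with its 95% interval, from the edgeR fit over all genes; red marks p below 0.05 before adjustment, dashed lines mark 1.5-fold, and an asterisk marks a row that also lists another gene. The points run from -0.36 for POLE to 0.63 for RPA3, and none had an adjusted p below 0.05.

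The number of members called depended on which CTTN libraries entered. Without CTTN-2, 14 members were called higher and 6 lower (47.1% of all genes were called). On the 39 rows that hold 1 gene these were 11 and 5, since the GINS2, FEN1, PRIM1 and POLD3 rows list another gene and the PRIM1 row is mostly NACA. Without CTTN-3 the count was 0, with 8.55% of all genes called. It was also 0 without CTTN-1 and without any one control, where 0.102 to 0.218% of all genes were called, so few genes of any kind passed there. CTTN-2 alone against the 3 controls, where its spread is assumed to be that of the controls, gave log2 fold changes of 0.20 for MCM7 and -0.21 for RFC4. With all 6 libraries RFC4 had one of 0.11, since CTTN-1 and CTTN-3 lay above every control and CTTN-2 below. DESeq2 called MCM7 and GINS2 higher and POLD3 lower, with 14.4% of all genes called, and of these only MCM7 has a row to itself.

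The 6 MCM genes of the helicase ring gave 2 positive and 4 negative log2 fold changes. In 4 of them the ranges of the groups did not overlap, beside 19.4% of all genes above the controls and 19.4% below. MCM7 (chr7:100092727-100128498), the most abundant of them, stood at 466, 448 and 481 CPM in CTTN-1, CTTN-2 and CTTN-3 against 389, 386 and 398 in the 3 controls. All 3 CTTN libraries were above all controls by a margin wider than the spread in either group, with a log2 fold change of 0.25 (SE 0.0735; 95% interval 0.08 to 0.42; adjusted p = 0.0927). Its log2 fold change stayed between 0.20 and 0.33 over the 20 alternative settings, with adjusted p from 0.012 to 0.32. MCM5 also lay above every control in all 3 CTTN libraries, by a smaller margin. It stood at 103, 104 and 106 CPM in CTTN-1, CTTN-2 and CTTN-3 against 95.9, 91.1 and 97.9 in the 3 controls. Its log2 fold change was 0.14 (SE 0.0733, adjusted p = 0.22). MCM4 lay the other way, at 341, 370.4 and 315 CPM in CTTN-1, CTTN-2 and CTTN-3 against 387, 409 and 416 in the 3 controls. Its CTTN libraries were all below its controls, with a log2 fold change of -0.24 (SE 0.0886; 95% interval -0.45 to -0.03; adjusted p = 0.14). On the FPKM scale the MCM4 groups overlapped and the log2 ratio of the means was 0.04. MCM6 also had all CTTN libraries below all controls, while MCM2 and MCM3 overlapped, and the intervals of these 3 ran within -0.29 to 0.18. As levels per length, the subunits of this equimolar ring spanned 4.42-fold in the controls, in the order MCM7 (140.1 ± 1.45 FPKM, SD, n = 3), MCM4 (111 ± 4.92 FPKM), MCM3 (42.4 ± 0.987 FPKM), MCM2 (37.2 ± 1.34 FPKM), MCM5 (35.2 ± 0.103 FPKM) and MCM6 (31.7 ± 1.33 FPKM).

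Origin recognition and licensing genes gave 4 positive and 3 negative log2 fold changes, with a median of 0.04 and adjusted p of 0.12 or more. CDC6, the ATPase that brings the MCM ring to ORC, was the most abundant of them, with 139, 145 and 148 FPKM in the 3 controls and 127, 144 and 113 in CTTN-1, CTTN-2 and CTTN-3. In CPM the groups overlapped, and the log2 fold change of -0.04 (SE 0.0716, adjusted p = 0.71) had a 95% interval of -0.21 to 0.13. ORC5 (chr7:104126340-104208047) stood at 52.6, 45.5 and 62.0 CPM in CTTN-1, CTTN-2 and CTTN-3 against 41.6, 42.7 and 41.5 in the 3 controls. All 3 CTTN libraries were above the controls, CTTN-2 by the least, with a log2 fold change of 0.35 (SE 0.121; 95% interval 0.06 to 0.63; adjusted p = 0.12). ORC1, the ORC subunit whose level is known to cycle, was the lowest of the group in FPKM and stood at 34.2, 33.7 and 27.5 CPM in CTTN-1, CTTN-2 and CTTN-3 against 37.8, 39.3 and 36.97 in the 3 controls. Here all 3 CTTN libraries were below the controls, with a log2 fold change of -0.26 (SE 0.107, adjusted p = 0.16). The control levels of the ORC subunits ran from 10.3 ± 0.285 FPKM (ORC1) through 11.996 ± 0.304 FPKM (ORC3), 15.5 ± 1.16 FPKM (ORC2) and 23.9 ± 0.637 FPKM (ORC5) to 33.2 ± 1.94 FPKM (ORC6). CDT1, which loads the ring together with CDC6, had 19.4 ± 1.82 FPKM in the controls. In CPM its groups overlapped, like those of ORC2, ORC3 and ORC6, while in FPKM every CTTN library of ORC3 lay above every control.

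The 6 helicase activation genes gave 3 positive and 3 negative log2 fold changes, with a median of -0.00158. CDC45, the most abundant of them, had 30.3, 31.9 and 35.1 FPKM in the 3 controls and 34.6, 30.2 and 47.7 in CTTN-1, CTTN-2 and CTTN-3, with overlapping groups and a log2 fold change of 0.07 (95% interval -0.18 to 0.31). GINS4 was the lowest of all 45 genes, at 5.32, 5.53 and 5.40 FPKM in the 3 controls and 4.21, 5.21 and 3.84 in CTTN-1, CTTN-2 and CTTN-3. Its log2 fold change of -0.17 (SE 0.140, adjusted p = 0.39) was within the spread of the counts, where the groups overlapped. Control levels of the 4 GINS subunits, which act as 1 tetramer, were 29.1 ± 0.358 FPKM for GINS1, 16.6 ± 0.550 FPKM for GINS3, 10.8 ± 0.245 FPKM for GINS2 and 5.42 ± 0.105 FPKM for GINS4. GINS2 shares its row with C16orf74, and GINS2 transcripts made 50.7% of the row's control FPKM. The whole row stood at 53.0, 42.3 and 68.9 CPM in CTTN-1, CTTN-2 and CTTN-3 against 37.5, 36.2 and 35.3 in the 3 controls. GINS2 transcripts alone gave 40.6, 32.3 and 51.8 CPM in CTTN-1, CTTN-2 and CTTN-3 against 29.5, 29.2 and 28.2 in the 3 controls. Both sets put every CTTN library above every control, CTTN-3 highest and CTTN-2 nearest to the controls, with a log2 fold change of 0.59 (adjusted p = 0.0903) for the row and 0.52 (adjusted p = 0.12) for GINS2 alone. MCM10, which helps to start the helicase, GINS1 and GINS3 overlapped between the groups in CPM, while in FPKM every CTTN library of GINS1 and of GINS4 lay below every control.

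The primase-polymerase alpha and RPA group had 5 positive and 2 negative log2 fold changes and contained the gene farthest above 0. RPA3, the smallest RPA subunit, stood at 45.4, 30.8 and 64.1 CPM in CTTN-1, CTTN-2 and CTTN-3 against 31.2, 30.9 and 28.8 in the 3 controls. CTTN-2 lay inside the control range while CTTN-1 and CTTN-3 lay above it, so that the log2 fold change of 0.63 (SE 0.240; 95% interval 0.06 to 1.19; adjusted p = 0.14) rested on 2 libraries, and CTTN-2 alone against the controls gave 0.02. PRIM2, the large primase subunit, overlapped. RPA2 had the same library order and overlapped with the controls, and RPA1, the largest subunit and the most abundant gene of the group, did not share it, with 41.6, 40.7 and 40.2 FPKM in the 3 controls and 43.6, 41.8 and 41.0 in CTTN-1, CTTN-2 and CTTN-3 and a log2 fold change of -0.01 (95% interval -0.18 to 0.16). POLA2, the accessory subunit of polymerase alpha, gave 59.5, 55.3 and 62.2 CPM against 52.3, 51.5 and 53.8 and an interval of -0.02 to 0.36. POLA1, the catalytic subunit of polymerase alpha, was among the 3 lowest members, at 8.27, 8.93 and 8.67 FPKM in the 3 controls and 7.22, 9.03 and 5.28 in CTTN-1, CTTN-2 and CTTN-3. CTTN-3 and CTTN-1 were below the controls and CTTN-2 inside their CPM range, with a log2 fold change of -0.28 (SE 0.175, adjusted p = 0.29). PRIM1, the catalytic primase subunit, shares its row with NACA, a nascent-chain factor gene whose transcripts dominate it. PRIM1 transcripts made 2.37% of the row's control FPKM and alone gave 56.3, 58.0 and 52.1 CPM in CTTN-1, CTTN-2 and CTTN-3 against 49.9, 58.6 and 55.3 in the 3 controls, a log2 fold change of 0.02 (SE 0.0937, adjusted p = 0.88).

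The clamp, its loader and polymerases delta and epsilon spread in both directions. POLD2, the accessory subunit of polymerase delta, led the group at 239, 236 and 237 FPKM in the 3 controls and 299.5, 247 and 358 in CTTN-1, CTTN-2 and CTTN-3. In CPM it stood at 445, 381 and 536 in the CTTN libraries against 373, 354 and 368 in the controls, every CTTN library above every control, with a log2 fold change of 0.31 (SE 0.128, adjusted p = 0.16). POLD3, another delta subunit, lay below, at 48.4, 52.3 and 44.7 CPM in CTTN-1, CTTN-2 and CTTN-3 against 60.6, 61.0 and 59.3 in the 3 controls. It had the lowest adjusted p of the 45 genes, with a log2 fold change of -0.31 (SE 0.0867; 95% interval -0.52 to -0.11; adjusted p = 0.0842), and its row also lists AP001372.2, while POLD3 transcripts made 95.4% of its control FPKM. POLD1, the catalytic delta subunit, gave 103, 104 and 109 CPM against 96.0, 88.0 and 98.3 and an interval of -0.02 to 0.35 for the log2 fold change of 0.17. On the FPKM scale POLD1 stood at 50.9, 39.3 and 73.3 against 38.0, 36.0 and 38.3, with a log2 ratio of the means of 0.54, outside that interval, and with the length and GC offset the log2 fold change in counts turned to -0.04. PCNA, the clamp, stood at 322, 255 and 379 CPM in CTTN-1, CTTN-2 and CTTN-3 against 278, 288 and 272 in the 3 controls. CTTN-2 was below all controls and the other CTTN libraries above them, with a log2 fold change of 0.19 (SE 0.142, adjusted p = 0.36). Among the clamp loader subunits, RFC2 lay above the controls in all 3 CTTN libraries, at 124, 97.0 and 150.3 CPM against 95.2, 94.1 and 90.6, with a log2 fold change of 0.41 (SE 0.153, adjusted p = 0.14). RFC1, the large loader subunit and the second lowest member, stood at 28.2, 32.0 and 23.0 CPM in CTTN-1, CTTN-2 and CTTN-3 against 32.6, 35.3 and 33.5 in the 3 controls. Its CTTN libraries were all below its controls in CPM, with a log2 fold change of -0.28 (SE 0.129, adjusted p = 0.18), but on the FPKM scale its values were 8.41, 7.73 and 9.99 against 8.15, 7.73 and 8.33 and the order was lost. POLE, the catalytic subunit of polymerase epsilon, gave the lowest log2 fold change of the members, -0.36 (95% interval -0.76 to 0.04), from 107, 142 and 87.6 CPM in CTTN-1, CTTN-2 and CTTN-3 against 138, 141 and 154 in the 3 controls, with CTTN-2 inside the control range. On the FPKM scale POLE stood at 19.4, 22.2 and 24.4 against 23.2, 21.5 and 23.0, CTTN-3 was its highest library and the log2 ratio of the means was -0.04. RFC3, RFC4 and POLE2, a small epsilon subunit, overlapped between the groups. Control levels of the 5 RFC subunits were 82.7 ± 1.67 FPKM (RFC4), 53.3 ± 1.22 FPKM (RFC2), 46.6 ± 1.58 FPKM (RFC3), 17.4 ± 0.512 FPKM (RFC5) and 8.07 ± 0.308 FPKM (RFC1).

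Nucleotide supply held the most abundant member. TK1, the thymidine salvage kinase (chr17:78174074-78187233), had 274, 264 and 259 FPKM in the 3 controls and 361, 276 and 480.0 in CTTN-1, CTTN-2 and CTTN-3. In CPM it was 498, 410.2 and 643 against 395, 369 and 375, all CTTN libraries above all controls, with a log2 fold change of 0.45 (SE 0.158; 95% interval 0.07 to 0.82; adjusted p = 0.13). DUT, which removes dUTP, showed the same order of libraries, at 58.8, 49.3 and 80.0 CPM in CTTN-1, CTTN-2 and CTTN-3 against 48.4, 46.7 and 47.8 in the 3 controls, with a log2 fold change of 0.40 (SE 0.170, adjusted p = 0.17). TYMS, which makes thymidylate de novo and overlaps the antisense gene ENOSF1, gave 132, 112 and 152 CPM in CTTN-1, CTTN-2 and CTTN-3 against 119.5, 118 and 118 in the 3 controls, overlapping groups and a log2 fold change of 0.16 (SE 0.117, adjusted p = 0.36). The ribonucleotide reductase subunits lay slightly below 0. RRM2, the S-phase subunit, gave 503, 486 and 479 CPM against 512, 534 and 536, below the controls in all 3 libraries, with a log2 fold change of -0.11 (SE 0.0733, adjusted p = 0.32), and RRM1 overlapped, with an interval of -0.25 to 0.11. The small RRM2 subunit had 203 ± 7.80 FPKM in the controls, well above RRM1 at 52.7 ± 1.80 FPKM.

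FEN1, LIG1 and SLBP, which cut flaps, join nicks and bind histone mRNA, had adjusted p of 0.29 to 0.62. FEN1, whose row also lists FADS2, had 63.5, 65.3 and 65.4 FPKM in the 3 controls and 72.8, 59.9 and 88.5 in CTTN-1, CTTN-2 and CTTN-3, with FEN1 transcripts making 99.3% of the row, and a log2 fold change of 0.17 (SE 0.128, adjusted p = 0.37) with overlapping groups. LIG1 in CPM was 89.4, 89.1 and 90.9 against 92.1, 91.5 and 95.7, below the controls in all 3 libraries, and its interval of -0.22 to 0.11 lay far inside 1.5-fold. On the FPKM scale LIG1 stood at 41.0, 30.2 and 59.6 against 37.7, 35.0 and 30.5. There the groups overlapped and the log2 ratio of the means was 0.34, outside that interval. SLBP had 42.2, 39.5 and 40.1 FPKM in the 3 controls and 46.4, 38.9 and 49.9 in CTTN-1, CTTN-2 and CTTN-3 and a log2 fold change of 0.19 (SE 0.122, adjusted p = 0.29), with CTTN-2 below all controls and the other CTTN libraries above them.

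Within the CTTN group the difference of a member from the controls went with its transcript length. Lengths, weighted by control FPKM, ran from 793 bases (the row that PRIM1 shares with NACA) to 5868 bases (POLE). Of 17 members under 2000 bases, 16 were above the control mean in CTTN-3 and 16 in CTTN-1, but 7 in CTTN-2. The PRIM1 row, which is mostly NACA, is among these 17. PRIM1 transcripts alone lay below their control mean in CTTN-3, at 52.1 against 54.6 CPM. Of 16 members over 3000 bases, 15 were below it in CTTN-3, 13 in CTTN-1 and 12 in CTTN-2. The median log2 difference of the short members was 0.44 in CTTN-3, 0.22 in CTTN-1 and -0.04 in CTTN-2, and of the long members -0.29, -0.11 and -0.06. All genes tested showed a like pattern, with medians of 0.48 and -0.47 in CTTN-3 for 5685 short and 5142 long genes, 0.23 and -0.23 in CTTN-1, and 0.02 and -0.02 in CTTN-2. As a description across genes, which share their libraries and are not independent, Spearman's rho between length and difference over the 45 members was -0.84 in CTTN-3, -0.79 in CTTN-1 and 0.04 in CTTN-2, beside -0.66, -0.52 and -0.04 over 14408 genes. The 7 members with p below 0.05 and a positive log2 fold change were between 1230.1 and 2667 bases long, and the 3 with a negative one between 3152 and 3762. With each library's trend against length and GC content taken out as an offset, MCM7, GINS2 and ORC5 were called higher and no member lower (15.7% of all genes were called), a setting chosen after the values were seen. Under the same offset the log2 fold change became 0.04 for POLD2, 0.15 for TK1, -0.02 for MCM4, -0.04 for RFC1 and -0.12 for POLE, each nearer to 0 than without it, and 0.24 for CDC6 and RPA1, which had been near 0.

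Counts and FPKM gave opposite signs for 7 of 45 members (MCM3, MCM4, RFC1, RFC3, PRIM1, LIG1 and RPA1). The log2 ratio of mean FPKM was 0.04 for MCM4, 0.11 for RFC1 and 0.34 for LIG1, each with a negative log2 fold change in counts. Transcripts assigned to MCM4, RFC1 and LIG1 were also shorter in CTTN-3, while those of RFC3 kept 99.8% of their control length there. Why the signs differ was not tested. The FPKM-weighted length of the transcripts assigned to a gene was under 90% of the control mean for 11 members in CTTN-3, 4 in CTTN-1 and 0 in CTTN-2. Each control set against the mean of the other two gave 3 members in CON-1 and 0 in CON-2 and CON-3. Over the 10985 genes with at least 1 FPKM in every library, 22.7%, 10.2% and 3.45% were under 90% in CTTN-3, CTTN-1 and CTTN-2, and 2.73 to 4.497% in a control. POLE transcripts averaged 3586 bases in CTTN-3 against 5441 to 6095 in the controls, and its 7840-base transcript took 11.4% of its FPKM there and 52.1, 68.6 and 68.8% in the controls. In CTTN-1 and CTTN-2 the POLE average was 5267 and 5777 bases. RFC1 averaged 3194, 4012 and 2261 bases in CTTN-1, CTTN-2 and CTTN-3 against 3762 to 4134. CDC6 moved the other way, to 108 and 115% of its control length in CTTN-1 and CTTN-3 and 98.4% in CTTN-2. For MCM4 the 4105-base transcript took 70.0, 86.8 and 31.6% in CTTN-1, CTTN-2 and CTTN-3 against 85.1, 81.2 and 85.6% in the controls, and a 2026-base one took 17.7, 0.632 and 45.8% against 2.70, 2.28 and 2.32%. In RRM1, an assembled transcript of 2251 bases that shares splice junctions with the reference but has a new one took 57.9% of the FPKM in CTTN-3, 13.0% in CTTN-1 and at most 0.00018% in CTTN-2 and each control. PCNA, TK1 and ORC1 stayed between 99.6 and 100.2% of their control lengths in the CTTN libraries. PCNA, TK1, ORC1, POLE, RFC1, CDC6, MCM4 and RRM1 were singled out after their values were seen. RNA integrity values were not used here, and their part in these shifts was not tested.

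DUT is known to make nuclear and mitochondrial forms from different first exons, and the start-site table separated its transcripts. The most used start site took 62.8, 65.0 and 68.2% of DUT FPKM in CTTN-1, CTTN-2 and CTTN-3, against 58.5, 63.1 and 60.8% in the controls. The group means were 65.3 ± 2.71% and 60.8 ± 2.31% (SD, n = 3 each), a difference of 4.53 percentage points in FPKM and 1.92 in counts, and the ranges of the groups overlapped. In an exact permutation test, two-sided, p was 0.20 (Benjamini-Hochberg adjusted p = 0.40 over 6 start sites), but 3 against 3 libraries cannot go below 0.10, so no site could have passed at 0.05. The smallest p, 0.10 (adjusted p = 0.40, the same exact permutation test), was at a minor site whose ranges did not overlap and which took 0.171 ± 0.0469% in the CTTN libraries and 0.430 ± 0.0697% in the controls. Of 7 sites listed, 1 was at 0 in all 6 libraries and was not tested. The start site next in level took 21.8 ± 1.60% and 22.2 ± 1.52%, a difference of -0.44 points in FPKM and 0.77 in counts. Which site makes which form was not settled from the table.

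Summed over the 45 genes, the control libraries held 2511, 2514 and 2527 FPKM, and CTTN-1, CTTN-2 and CTTN-3 held 2802, 2517 and 3208. The ratio of the group means was 0.17 on the log2 scale. The sum of FPKM over all genes was itself 704018 in CTTN-1 and 852256 in CTTN-3 against 603634 to 624680 in the controls, and as a share of that sum the members took 0.397 ± 0.0198% in CTTN and 0.411 ± 0.00846% in Control, with the direction turned. Within the CTTN group the members varied more than within the controls, with a median SD of log2 CPM of 0.167 against 0.0504. The same medians over all genes tested were 0.237 and 0.0779.

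Other genes of replication control and nucleotide synthesis, 74 in all, gave 0 called higher and 3 called lower, a median log2 fold change of -0.07 and 41 values below 0. The called share, 4.05%, was near the 4.46% of all genes tested. The split was 6 higher and 6 lower with the length and GC offset, and 15 higher and 25 lower without CTTN-2, where 15.7% and 47.1% of all genes were called. MTHFD1, a folate enzyme that feeds purine and thymidylate synthesis, fell in all 3 CTTN libraries, at 294, 309 and 255 CPM in CTTN-1, CTTN-2 and CTTN-3 against 391, 402 and 411 in the 3 controls, a log2 fold change of -0.49 (SE 0.0934, adjusted p = 0.0372). CCNE2, a cyclin of the G1 to S transition, fell from 11.96, 13.6 and 11.3 CPM in the controls to 8.73, 9.15 and 8.28, a log2 fold change of -0.49 (SE 0.106, adjusted p = 0.0497). CTPS2, a CTP synthase, fell from 5.99, 5.72 and 4.92 CPM to 3.48, 3.78 and 3.40, a log2 fold change of -0.64 (SE 0.127, adjusted p = 0.0415). In all 3 genes the CTTN libraries, CTTN-2 included, lay below every control, though each adjusted p is close to 0.05. All 3 calls were lost without CTTN-1, without any one control library, in the 3 limma fits on FPKM and with the sample table's block, and over the 20 alternative settings the call was lost in 9 for MTHFD1 and CTPS2 and 11 for CCNE2. The list holds 5 genes of the E2F family named with the promoter letters, which were looked up after the values were seen, and none was called in the edgeR fit. Over the 20 alternative settings E2F3 and E2F7 were called in 4 each, and E2F1 and E2F8 in 1 each. Of the activators, E2F1 had a log2 fold change of 0.25 (adjusted p = 0.15), E2F2 one of -0.06 (adjusted p = 0.77) and E2F3 one of -0.49 (adjusted p = 0.11). Of the repressors, E2F7 had one of -0.66 (adjusted p = 0.12) and E2F8 one of -0.37 (adjusted p = 0.20). All CTTN libraries lay above all controls for E2F1 and below them for E2F3 and E2F7, while E2F2 and E2F8 overlapped. Over all genes tested these shares were 19.4% above and 19.4% below. CTTN-2 was nearest to the controls for E2F1, E2F3 and E2F7. E2F7 stood at 16.8, 25.8 and 13.1 CPM in CTTN-1, CTTN-2 and CTTN-3 against 28.6, 29.6 and 29.9 in the 3 controls.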

How the data were processed

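Stranded poly(A)-selected mRNA libraries of 6 samples were sequenced, described as stable cells in the design text and as tumors of the lines in the extraction label. The authors aligned reads with STAR and made gene, isoform and start-site tables with Cufflinks; the submitters' processing notes name GRCh38, bcl2fastq 2.20.0 and Trimmomatic, the paper's methods name another build and trimmer, and the loci of all 45 members overlap RefSeq on GRCh38. The deposited gene values are estimated counts that the authors' software divided by a scale per library. The deposited sample table gives that scale as a ratio, and multiplied back by it, 100% of 124030 non-zero values were whole (within 0.01 or, for larger counts, a relative 1e-05), and the rounded counts were tested. The deposited FPKM values were scaled by the authors to transcript length and library total. The sample table ties the columns to groups, but its control numbers and those of the labels differ, so control numbers are only names. 6 members share a row with another gene and were also summed by reference transcript. Whether counting used strand is not given in the sources used here.

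edgeR 4.0.16 (TMM, filterByExpr, quasi-likelihood F-test, two-sided, Benjamini-Hochberg) compared the groups, with a call at adjusted p below 0.05. The pipeline was also run on simulated counts with equal spread in both groups and no length trend, unlike the CTTN libraries here. limma 3.58.1, DESeq2 1.42.0, other scalings and filters, left-out libraries and blocks were alternatives, the offset, the split rows, CTTN-2 alone and the table-numbered block being added after the data were seen. Levels are FPKM, compared without a test. Members and lists were chosen with earlier results of these data known. Named with all values are the top member of each role by FPKM, the 3 lowest members, CTTN and called related genes; other named genes were chosen after their values were seen.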

Additional observations from a re-analysis of the deposited data

How the results depend on the processing

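Over all genes, 643 calls became 976 with no filter on low counts, 2074 with DESeq2, and 116, 131 and 13 with limma on FPKM (pseudocount 1, pseudocount 0.1, and no filter). They became 15 to 6925 when a library was left out, 2255 with the length and GC offset and 2255 for CTTN-2 alone. Members called, 0 in the edgeR fit, numbered 1 with no filter, 3 with DESeq2, 3 with the offset, 2 for CTTN-2 alone, and 0 to 20 when a library was left out (20 without CTTN-2). Related genes called, 3 in the edgeR fit, numbered 1 with library totals, 8 with DESeq2, 0 in each limma fit, 1 with split rows, 12 with the offset, 12 for CTTN-2 alone and 0 to 40 when a library was left out (40 without CTTN-2), and their median of -0.07 became -0.12 with library totals and -0.0037 with the offset. The median of the members stayed between -0.054 and 0.10. The summed member level, 0.17 on the log2 scale, became -0.051 when FPKM were divided by the library sum. The causes were not tested.

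Same-numbered libraries did not deviate together (correlations of 0.02, 0.08 and -0.19 with the sample table's numbers, -0.01 and 0.20 with the labels'), so the numbers were not taken as pairs. The replicate block of the labels' numbers also leaves out CON-1, which those labels do not number, and gives CTTN-3 no partner, so its values do not show the block alone. In that fit calls were 1640 (29 without CON-1 and with no block) over all genes, 1 among the members (GINS2) and 9 among related genes, and with the sample table's numbers 105, 0 and 0. Leaving out the control column that the labels do not name is the setting without CON-1.

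Signs turned for members near 0 and for some farther from it, such as POLA1 and RFC1 (-0.28 each in the edgeR fit), MCM4 (-0.24), PCNA and SLBP (0.19 each). Members above 0 numbered 26 in the edgeR fit, 16 for CTTN-2 alone and 32 with the offset. The values that follow cover only a part of the genes that turned. For CTTN-2 alone the log2 fold change was -0.088 for CDC45, -0.091 for FEN1, 0.045 for GINS4, -0.13 for PCNA, 0.024 for POLA1, -0.070 for SLBP, -0.085 for TYMS and 0.17 for the related gene E2F2. With the offset it was -0.024 for CDC45, 0.24 for CDC6, 0.00077 for GINS4, 0.058 for POLA1, -0.042 for POLD1, 0.24 for RPA1, 0.097 for RRM1, 0.061 for RRM2 and 0.11 for E2F2. In the 3 limma fits it was 0.29 for LIG1, 0.027 for MCM4, 0.092 or 0.10 for RFC1 and 0.043 or 0.044 for RPA1. RPA1 gave 0.0015 with at least 50 counts in 3 libraries and -0.030 to 0.023 when a library was left out. CDC45 gave -0.077 in the fit with the labels' block and without CON-1, and -0.015 to 0.13 when a library was left out. E2F2 gave -0.20 to 0.051 when a library was left out. The lowest value of any member in any library was 14.01 CPM (GINS4 in CTTN-3).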
